A study of Mus musculus with 5 samples.

Results

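The marrow of irradiated mice at 11 days after irradiation (11 DAI) was set against that at 7 DAI, with 1 array for each day out of 5 arrays in all. The comparison took in every annotated probe: 34885 of the 45281 probes on the array carried 1 gene symbol and covered 19057 genes. Both groups were male BALB/c mice of 7 to 8 weeks that had received a single total body dose of 4 Gy gamma-rays, and the sample was total RNA from all cells flushed from both tibias. The other arrays were a sham-irradiated sample (0 DAI) and samples taken at 3 and 21 DAI, and they are given only to place the levels of the 2 days compared. Sources did not settle how many mice stood behind each array, and there was no second array at any day, so no ratio below has a replicate check, an error or a p-value. The only spread available within the data is that between probes of 1 gene, which is given before the gene groups.

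Total body irradiation empties the marrow of dividing precursors, and the marrow is then refilled from surviving stem and progenitor cells. Cells that return in this period include neutrophil, red cell, platelet and B lymphocyte precursors, each of which switches on its own set of genes as it matures. Interferons are secreted proteins of antiviral defence: they act through receptors and JAK kinases, and many of their target genes carry the interferon-stimulated response element in the promoter. Interferon-gamma also raises the genes that load peptides onto MHC molecules.

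A signal under 64 was set to 64, and a gene counted as measured where its brightest probe was above that floor on both arrays. That held for 7482 genes, whereas 456 were above the floor at 11 DAI only, 409 at 7 DAI only and 10710 on neither array. Ratios are log2 of the 11 DAI signal over the 7 DAI signal, so that 1 is a doubling. The median ratio of the 7482 genes was 0.04 and the quartiles lay at -0.42 and 0.43. At least 2-fold higher at 11 DAI were 383 genes (5.12%), and at least 2-fold lower were 679 (9.08%), together 14.2%. Of the 865 genes above the floor on 1 array, 97 (11.2%) had a bound of at least 2-fold higher and 90 (10.4%) one of at least 2-fold lower. These shares are the background for each list below. Past 4-fold the numbers were 70 higher and 81 lower, and past 8-fold they were 21 higher and 4 lower. Higher genes were fewer in all but outnumbered the lower ones past 8-fold.

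**Figure D1:**
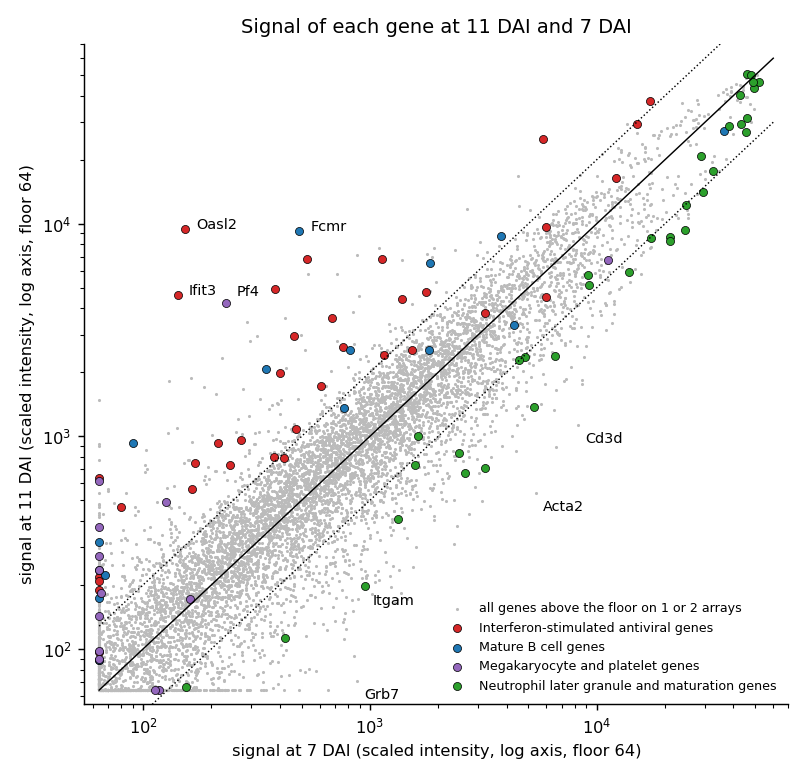
Each gene above the floor of 64 on at least 1 of the 2 arrays is a point, with its signal at 11 DAI on the vertical axis and at 7 DAI on the horizontal axis (scaled intensity, log axes). The solid line marks equal signal and the dotted lines 2-fold; antiviral genes (red) and mature B cell genes (blue) lie mostly above the upper dotted line, and 18 of the 34 later neutrophil genes (green) lie on or below the lower one.

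Genes of more than 1 probe showed how closely 2 probes on the same 2 arrays gave the same ratio. Over 2466 genes with several measured probes, the ratios of the 2 brightest differed by a median of 0.23 and by 0.65 at the 90th percentile. Of 98 higher genes with a second measured probe, 60 passed 2-fold on it too, 36 moved the same way by less and 2 moved the other way by less. Of 210 lower genes, the counts were 144, 60 and 6. None passed 2-fold in opposite directions on its 2 brightest probes.

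The marrow label was checked against defining genes. The pan-leukocyte gene Ptprc was at 490 at 11 DAI and 686 at 7 DAI, and the neutrophil genes S100a8, S100a9, Ngp, Mpo and Elane, the globin gene Hba-a1 and the B cell gene Cd79b were all measured. Markers of liver (Alb), muscle (Ckm, Myh4), brain (Gfap) and skin (Krt14) were under the floor on all 5 arrays. The stromal genes Col1a1 and Sparc and the endothelial gene Cdh5 were under the floor on both arrays compared. Above it on both were the stromal gene Cxcl12 (1210 at 11 DAI and 1382 at 7 DAI) and the endothelial gene Pecam1 (433 at 11 DAI and 222 at 7 DAI). The share of probes above the floor ran over a narrow range, 29.8% to 30.5% for the 5 arrays.

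Promoters are shown for the 3 interferon-stimulated genes of the highest ratio that held the interferon-stimulated response element, and for the later neutrophil gene of the lowest ratio. Each runs 5′ to 3′ on the strand of the gene, from 250 bases before to 50 after the start of transcription (RefSeq, build GRCm38.p6). The element was searched as GAAA, any 2 bases and GAAA again on both strands, and its matches are in capitals.
Ifit3, chr19:34583279-34583578, plus strand: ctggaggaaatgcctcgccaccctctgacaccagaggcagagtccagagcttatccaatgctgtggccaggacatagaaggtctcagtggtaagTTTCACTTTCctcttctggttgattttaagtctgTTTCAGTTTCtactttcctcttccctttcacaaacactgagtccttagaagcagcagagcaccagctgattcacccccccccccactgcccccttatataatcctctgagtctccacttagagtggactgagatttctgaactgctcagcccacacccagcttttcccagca
Isg15, chr4:156200769-156201068, minus strand: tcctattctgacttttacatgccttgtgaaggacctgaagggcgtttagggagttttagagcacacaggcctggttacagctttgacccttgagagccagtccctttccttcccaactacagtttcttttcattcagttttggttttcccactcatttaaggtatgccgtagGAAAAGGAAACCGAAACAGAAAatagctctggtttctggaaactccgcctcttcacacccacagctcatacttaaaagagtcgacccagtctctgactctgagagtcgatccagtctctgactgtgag
Gbp2, chr3:142620413-142620712, plus strand: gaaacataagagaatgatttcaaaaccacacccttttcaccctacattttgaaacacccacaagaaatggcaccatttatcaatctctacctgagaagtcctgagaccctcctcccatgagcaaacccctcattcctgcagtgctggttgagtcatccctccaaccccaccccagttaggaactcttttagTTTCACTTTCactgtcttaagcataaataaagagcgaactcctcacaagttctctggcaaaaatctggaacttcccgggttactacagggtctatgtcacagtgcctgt
Itgam, chr7:128062390-128062689, plus strand: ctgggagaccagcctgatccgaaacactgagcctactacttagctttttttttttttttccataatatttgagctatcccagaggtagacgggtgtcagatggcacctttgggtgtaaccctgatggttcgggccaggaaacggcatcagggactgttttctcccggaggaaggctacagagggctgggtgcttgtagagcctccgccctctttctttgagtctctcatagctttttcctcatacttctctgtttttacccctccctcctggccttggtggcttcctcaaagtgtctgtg
Ifit3 held 2 matches, Isg15 a run of 3 overlapping ones and Gbp2 1, whereas Itgam held none.

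Of the 298 higher genes with a promoter in the table, 30 (10.1%) held this element, against 26 of 553 lower genes (4.70%) and 182 of the 5345 within 2-fold (3.41%). Over all 32851 promoters of the table the share was 3.44%, and over its 27025 genes, some of which have several promoters, 3.99%. It was held by 11 of the 23 measured antiviral genes with a promoter and by 6 of 7 such GTPase genes. No later neutrophil gene of 28 held it. Oasl2, with the largest ratio, held none in this window. The C/EBP motif, TTGCNNAA, was held by 9 of these 28 neutrophil genes (32.1%), against 13.6% of all lower genes, 10.5% of all measured genes and 10.8% of all promoters. It was also held by 3 of the 7 GTPase genes, 1 of the 23 antiviral genes and 11.1% of all higher genes. The GATA motif, AGATAA, was held by 7 of the 28 neutrophil genes (25%), against 7.91% of all measured genes. A raised share was thus not particular to the C/EBP motif or to the neutrophil list. The GAS motif, TTCNNNGAA, was held by 13.1% of the higher genes and 6.87% of the lower ones, against 8.31% of all measured genes and 8.30% of all promoters. Motifs of NF-kB (GGGA, any base, TTTCC), AP-1 (TGANTCA) and GATA factors (AGATAA) were held by 0.671%, 9.73% and 9.40% of the higher genes and by 0.904%, 7.78% and 9.76% of the lower genes, against 0.484%, 5.87% and 7.91% of all measured genes with a promoter and 0.411%, 7.81% and 11.2% of all promoters. The shares of all promoters count each promoter, whereas the gene groups count a gene with the motif in any of its promoters. Over all 27025 genes counted that way, the shares were 12.2% for C/EBP, 9.55% for GAS, 0.466% for NF-kB, 8.97% for AP-1 and 12.7% for GATA. Matches of different motifs can share bases, and a match is a run of letters, not a measured site.

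**Figure D2:**
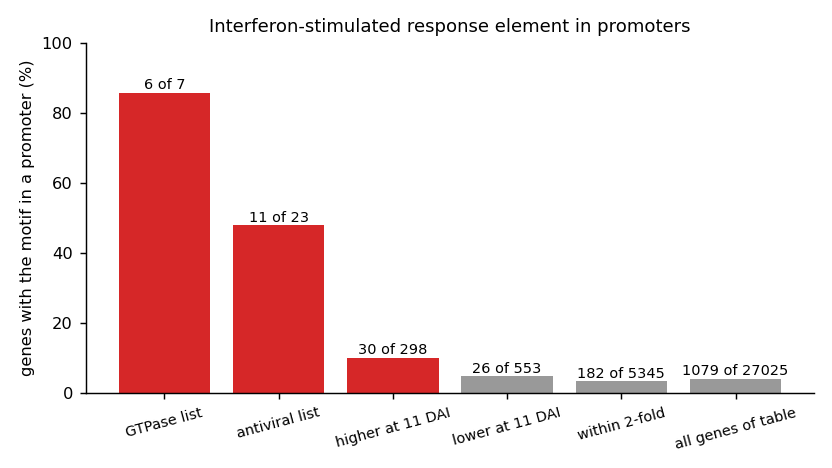
Bars give the percent of genes with a promoter that held the interferon-stimulated response element, with counts above them, for the measured genes of the GTPase and antiviral lists, the genes at least 2-fold higher, at least 2-fold lower and within 2-fold at 11 DAI against 7 DAI, and all genes of the promoter table. The share was 10.1% in the higher genes and 4.70% in the lower ones.

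Interferon-stimulated genes made up much of the top of the ratio list. Oasl2, a member of the 2'-5' oligoadenylate synthetase family, read 264, 1080, 154, 9454 and 254 at 0, 3, 7, 11 and 21 DAI. Its log2 ratio of 5.94, a 61.5-fold difference, was the largest of all measured genes. Ifit3, of a family that binds viral RNA, read 169, 891, 142.5, 4595 and 89.5 on the same days, a ratio of 5.01. Both genes had a smaller peak at 3 DAI, and 7 DAI was the lowest array for Oasl2 and the second lowest for Ifit3.

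The list held 48 antiviral genes. Of the 30 that were measured, 23 passed 2-fold towards 11 DAI and none passed it towards 7 DAI. The median ratio of the 30 was 1.73, against 0.04 over all genes. Usp18, a protease that removes ISG15 from proteins and restrains the receptor, read 6792 at 11 DAI and 525 at 7 DAI (ratio 3.69). Isg15 itself, a ubiquitin-like modifier, read 4911 at 11 DAI and 382 at 7 DAI (3.68). Other antiviral genes had smaller ratios: Oas2 had a ratio of 2.67, Oasl1 of 2.40, Bst2 (a tether of budding virions) of 2.15 and Eif2ak2 (a kinase activated by double-stranded RNA) of 1.80. Of the restriction factors of the Ifitm family, Ifitm3 had a ratio of 1.14 and Ifitm2 of 0.44, and Ifitm1 had 0.97 on its brightest probe and 1.85, 2.21 and -0.61 on its other measured probes. Samhd1, a nucleotide hydrolase, had a ratio of 0.25. Ifi27 alone among the 30 was lower, by less than 2-fold (-0.40). Oas1g was an exception in time, being under the floor at 0 and 3 DAI and reading 1135, 6853 and 1352 at 7, 11 and 21 DAI.

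Mx2, a dynamin-like GTPase, was under the floor at 7 DAI and at 638 at 11 DAI, so that it was at least 9.97-fold higher. The other interferon-inducible GTPases, which attack the vacuoles of intracellular pathogens, followed the same pattern: of 8 measured, 7 were at least 2-fold higher and the median was 2.92. Gvin1 had a ratio of 3.81, Gbp2 of 3.45 (5813 at 11 DAI and 533 at 7 DAI), Gbp2b of 3.08, Igtp of 3.01 and Ifi47 of 2.82. Irgm1 depended on the probe, with a ratio of 0.43 on its brightest probe and 2.95 on the second. Interferon-inducible chemokines and other targets were less uniform: of 16 measured, 5 were at least 2-fold higher and 5 had ratios below 0. The median of the 16 was 0.58, and 1 gene, Fas (-1.58), was at least 2-fold lower.

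The genes that carry the interferon signal were less uniform. The list held 31 genes, of which 21 were measured and 6 passed 2-fold upwards. Irf7, the factor that amplifies interferon-alpha genes, read 2339.6 at 11 DAI and 222 at 7 DAI (3.40), and Nlrc5, the transactivator of MHC class I genes, 1095 at 11 DAI and 141 at 7 DAI (2.96). The signal transducers Stat2 (1.89) and Irf9 (1.02), the nuclear body protein Pml (1.45) and the feedback inhibitor Socs3 (1.20) were the others. Irf1 came near with 0.82. The receptor chains Ifngr1 and Ifnar2 had ratios of -0.54 and -0.84. Ifngr2 depended on the probe, with 0.50 on its brightest and -1.07 and -1.38 on its other 2. The kinases Jak1, Jak2 and Tyk2 had ratios of -0.62, -0.22 and 0.03. The interferon genes Ifng, Ifnb1 and Ifna4 themselves were under the floor on both arrays, which for a bulk sample only means that their signal did not exceed it.

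**Figure D3:**
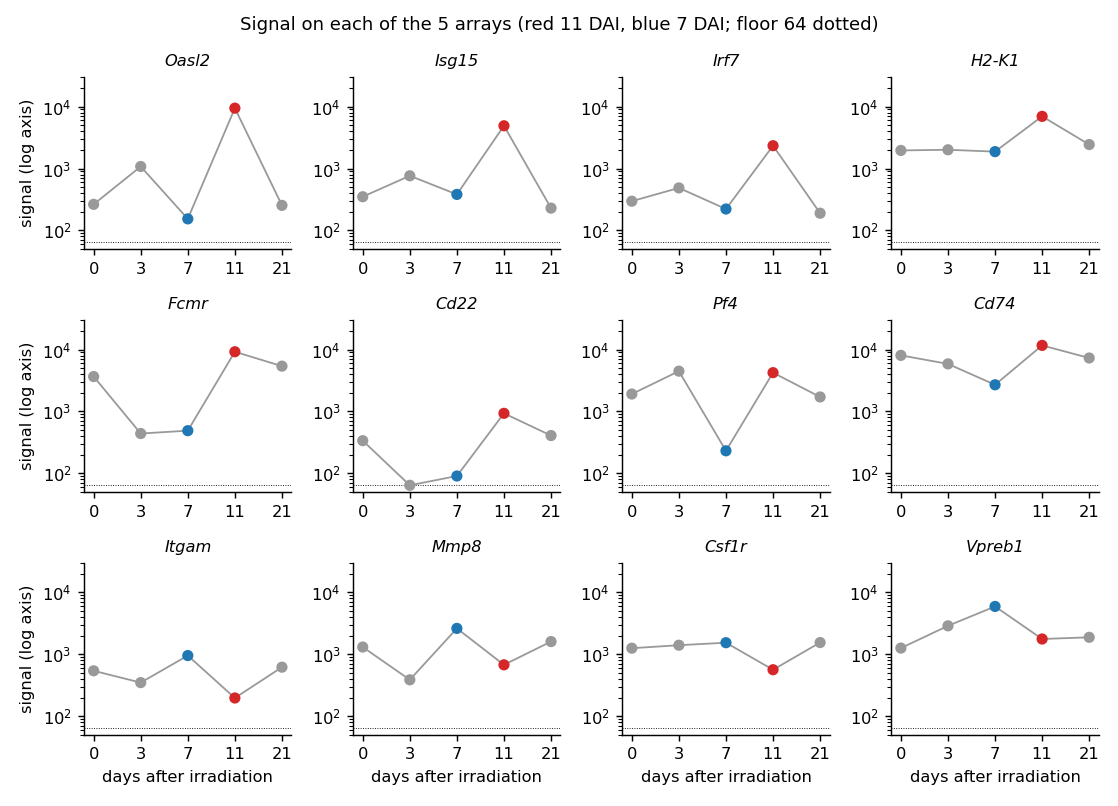
Signal (scaled intensity, log axis) of 12 genes on the arrays of 0, 3, 7, 11 and 21 DAI, with the 11 DAI array in red and the 7 DAI array in blue; the dotted line is the floor of 64. Oasl2, Isg15, Irf7 and H2-K1 peak at 11 DAI, whereas Itgam and Csf1r are lowest there. Mmp8 is lower at 11 DAI than at 7 DAI but lowest at 3 DAI.

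Antigen presentation genes were higher in both MHC classes. In class I, 8 of 11 measured genes were at least 2-fold higher and the median was 1.89. H2-K1, a classical heavy chain, read 6971 at 11 DAI and 1877 at 7 DAI (1.89), and its other 2 probes gave 2.17 and 1.64. H2-T10 had a ratio of 3.02 and H2-M3 of 2.30, whereas B2m, the shared light chain, had 0.47. The H2-T10 signal at 7 DAI, 69.9, was close to the floor. H2-D1 depended on the probe, with 0.60 on its brightest and 0.54, 1.02 and 1.22 on its others. Peptide supply moved the same way: 7 of 11 immunoproteasome and loading genes passed 2-fold, among them the transporter Tap1 (2.20) and the proteasome subunits Psmb10 (2.01) and Psmb9 (1.58). The constitutive proteasome subunits, which serve all cells, had 2 of 18 higher and a median of 0.43.

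Class II genes differed in time. All 11 measured class II genes were at their lowest of the 5 arrays at 7 DAI, which was so of 18.8% of all measured genes. Between the days, 6 of the 11 passed 2-fold towards 11 DAI. H2-Eb1 read 2496, 1817, 840, 3843 and 1738 at 0, 3, 7, 11 and 21 DAI (2.19), and Cd74, the invariant chain that guards the class II groove, read 8045, 5858, 2692, 11663 and 7297 (2.12). The lysosomal reductase Ifi30 had a ratio of 2.29.

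Many mature B cell genes were higher at 11 DAI. In bulk marrow, fewer cells of a type and less RNA per cell cannot be told apart, and this holds for every lineage list below. Of 11 measured mature B cell genes, 7 were at least 2-fold higher and the median was 1.64. Ratios were below 0 for 2, and the lowest was that of Cd52. It read 27338 at 11 DAI and 36219 at 7 DAI (-0.41, with -0.53 on its second probe). Fcmr, the receptor for IgM, read 3658, 439, 488, 9203 and 5388 at 0, 3, 7, 11 and 21 DAI, a ratio of 4.24. Cd22, an inhibitory co-receptor, read 931 at 11 DAI and 90.4 at 7 DAI (3.36), and Tnfrsf13c, the receptor for BAFF, 2082 and 350 on the same days (2.57). Cd40 (3.23), a receptor for T cell help, was not on this list but was among the 15 highest genes. Ly6d (3.59), a marker of B lineage commitment counted on the dendritic cell list, was also among the 15. The survival factor for B cells Tnfsf13b, made by myeloid cells, went the other way with 891 at 11 DAI and 6578 at 7 DAI (-2.88).

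B cell precursor genes had no common direction, with 3 of 13 higher, 3 lower and a median of 0.28. The surrogate light chain genes of the pre-B cell receptor were lower: Igll1 read 3425 at 11 DAI and 11704 at 7 DAI (-1.77) and Vpreb1 1765 at 11 DAI and 5927 at 7 DAI (-1.75). Dntt, the polymerase that adds bases at immunoglobulin joints, read 65.4 at 11 DAI and 374 at 7 DAI (-2.52), so it was close to the floor on the later day. Cd79b, the signalling chain kept through B cell life, had a ratio of 1.42, and the recombinase gene Rag1 of 0.48.

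T and NK cell genes were mostly dim. Of 6 measured NK and cytotoxic genes, 3 were at least 2-fold higher. These were the lectin receptors Klre1 (2.71) and Klrd1 (1.27) and the protease Ctsw (1.73). Klre1 read 74.3 at 7 DAI, close to the floor. Among T cell genes, Cd2 had a ratio of 2.76 and Cd3g of 1.16. Cd3d, which like Cd3g encodes a chain of the T cell receptor complex, went against them: its single probe read 1129 at 11 DAI and 8263 at 7 DAI (-2.87). Cd3e was above the floor at 11 DAI only. The chains of this complex thus gave opposite directions.

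Of 5 measured megakaryocyte and platelet genes, 3 passed 2-fold towards 11 DAI. The lowest array was 7 DAI for 3, as for 18.8% of all measured genes. Pf4, the chemokine stored in platelet alpha granules, read 1908, 4471, 231, 4228 and 1712 at 0, 3, 7, 11 and 21 DAI, which made the 11 DAI signal 18.3-fold that of 7 DAI. Gp5, a chain of the von Willebrand factor receptor, read 489 at 11 DAI and 126 at 7 DAI (1.96). A further 7 genes were above the floor at 11 DAI only, and 5 of them had a bound of at least 2-fold: the chemokine precursor Ppbp (at least 9.58-fold higher), Treml1, the integrin chain Itga2b, Vwf and the tubulin Tubb1. Another 2, Rgs18 (113 at 7 DAI) and the ATP receptor P2rx1 (118 at 7 DAI), were above the floor at 7 DAI only, with bounds under 2-fold. Gp9, which like Gp5 is a chain of the von Willebrand factor receptor, had a ratio of 0.08. The transcription factor Nfe2, shared with other myeloid cells, read 6782 at 11 DAI and 11190.5 at 7 DAI (-0.72).

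Later neutrophil genes were lower as a group, and none was higher. Of 34 measured genes for secondary and tertiary granules and for maturation, 18 (52.9%, against 9.08% of all genes) were at least 2-fold lower and the median was -1.02. Itgam, the alpha chain of the CR3 integrin, read 541, 349, 953, 197 and 619 at 0, 3, 7, 11 and 21 DAI, a ratio of -2.28. The integrin Itgb2l (-2.18), the collagenase Mmp8 (-1.96), the granule protein Olfm4 (-1.94) and the histone deiminase Padi4 (-1.91) were next. Of the 34 genes, 17 had 11 DAI as the lowest of the 5 arrays and, counted separately, 28 had 7 DAI as the highest. Over all measured genes these shares were 22.6% and 23.5%. The brightest members, Ltf, Lcn2, S100a8, S100a9 and Ngp, read 40123 or more on both arrays, close to the highest signals of the array, and had ratios between -0.18 and 0.15; a change would be hard to see there. The second probe of Ltf, at 4090.3 at 11 DAI and 12501 at 7 DAI, gave -1.61.

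Of 11 measured primary granule and progenitor genes, which are made at an earlier stage, 1 was at least 2-fold lower and the median was 0.09. Another 1, above the floor at 7 DAI only, had a bound of at least 2-fold lower. The serine proteases Ctsg, Prtn3 and Elane had ratios of 0.86, 0.54 and -0.03, and Mpo 0.09. Mpo read 48258 at 11 DAI and 45281 at 7 DAI, in the range where a change would be hard to see, and its 3 dimmer probes gave ratios from 0.21 to 0.38. Of the measured genes, only the lectin Fcnb passed 2-fold on its brightest probe (-1.46). Cebpe had a ratio of -0.78 on its brightest probe and -0.92, -1.09 and -1.09 on its others.

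Monocyte genes were lower too, with 9 of 19 measured at least 2-fold lower, none higher and a median of -0.75. Csf1r, the receptor for the growth factor of the lineage, read 562 at 11 DAI and 1538 at 7 DAI (-1.45), and Fn1, fibronectin, 195 at 11 DAI and 1237 at 7 DAI (-2.66). S100a4 (-1.65), Sirpa (-1.62) and the lipopolysaccharide co-receptor Cd14 (-1.42) followed. Itgam is on this list as well as on the neutrophil list. In 15 of the 19 genes the 11 DAI array was the lowest of the 5, against 22.6% of all measured genes. Of 15 measured resident macrophage genes, 2 were lower: the iron exporter Slc40a1 (-1.66) and the mannose receptor Mrc1 (-1.55). The complement genes C1qa, C1qb and C1qc had ratios of -0.02, 0.40 and 0.02.

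Growth factor receptors of these lineages were among the lower genes. Of 16 measured cytokine receptor and feedback genes, 6 were at least 2-fold lower, including Csf3r, the receptor for G-CSF (2391 at 11 DAI and 6552 at 7 DAI, -1.45), Csf2ra (-1.67), Il6ra (-1.40) and the repressor Bcl6 (-1.70). Socs3 was the 1 gene of this list that was higher (1.20).

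Of 11 measured eosinophil, basophil and mast cell genes, 1 was at least 2-fold higher and 4 lower. Ratios were below 0 for 10, and the median was -0.63, against 0.04 over all genes. The higher one was Prg2, major basic protein, which read 7535 at 11 DAI and 2376 at 7 DAI (1.66). The eosinophil peroxidase gene Epx, under the floor at 7 DAI, was at 252 at 11 DAI, a log2 ratio of at least 1.98, and Ear6, an eosinophil-associated ribonuclease, was under the floor at 7 DAI and at 769.7 at 11 DAI. Its relatives Ear10 (-2.93), Ear3 (-1.98) and Rnase2a (-1.72) were lower. These ribonuclease genes are near-copies of each other, and a probe may read more than 1 of them.

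**Figure D4:**
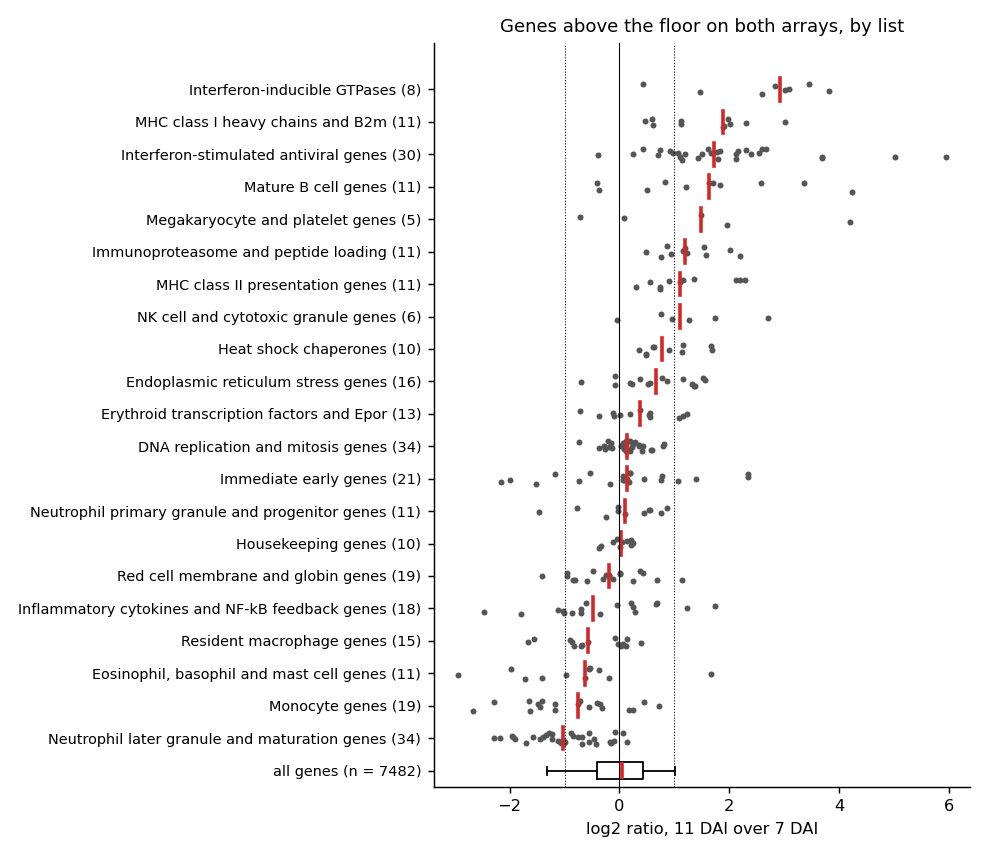
Each point is a gene above the floor on both arrays, placed by its log2 ratio of 11 DAI over 7 DAI, in 21 lists with their measured number in brackets; the red bar is the list median. The lowest row shows all 7482 genes as a box (quartiles, with whiskers at the 5th and 95th percentiles). By their medians, the antiviral, GTPase and MHC lists lie to its right and the monocyte and later neutrophil lists to its left. The other interferon lists are not drawn.

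Most red cell genes stayed within 2-fold. Of 19 measured membrane and globin genes, 1 was at least 2-fold higher and 1 lower. Ratios were below 0 for 12 and above 0 for 7, and the median was -0.20. The higher one, the cytoskeletal gene Add2, had a ratio of 1.14, but its second probe gave -0.43. The lower one, Tmcc2, read 964 at 11 DAI and 2575 at 7 DAI (-1.42). Slc4a1 and Dmtn both had ratios of -0.96, and the second probe of Dmtn gave -1.55. Hba-a1 read 44529 at 11 DAI and 44288 at 7 DAI, which is also in the range where a change would be hard to see. Of 15 measured genes of heme synthesis and iron uptake, 1 was at least 2-fold higher, Steap3 (1.11), 2 were lower and the median was -0.04. The lower ones were Alas2 and Slc25a37. Alas2, the first enzyme of heme synthesis in red cells, read 8594, 1981, 11478, 4775 and 2022 at 0, 3, 7, 11 and 21 DAI (-1.27), and the mitochondrial iron carrier Slc25a37 had a ratio of -1.36. On the list of red cell transcription factors and Epor, the erythropoietin receptor, 3 of 13 measured genes were higher, none was lower and the median was 0.37. Gata1 (1.24) and Gfi1b (1.08) were among the higher ones, with Klf1 and Epor both at 0.56.

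Genes that respond within an hour to stimulation had no common direction: 4 of 21 were higher and 4 lower. Egr1 read 31194, 9247, 893, 4544 and 2909 at 0, 3, 7, 11 and 21 DAI (2.35), and Fosb 466 at 11 DAI and 92.0 at 7 DAI (2.34). The lower ones were Fosl2 (-2.16), Ier2 (189 at 11 DAI and 755 at 7 DAI), the phosphatase Dusp1 (-1.52) and Klf6 (-1.18). Egr1 and Fosb stayed far below their 0 DAI level on both days. Fos, at 5074 at 11 DAI and 4860 at 7 DAI, was nearly level (0.06).

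Among inflammatory genes, 5 of 18 were lower and 2 higher, and the median was -0.48. The highest ratio was that of Bcl3, which read 310 at 11 DAI and 93.3 at 7 DAI (1.73). The interleukin-1 pair moved together: Il1b read 637 at 11 DAI and 2206 at 7 DAI (-1.79) and its receptor antagonist Il1rn 152 at 11 DAI and 839 at 7 DAI (-2.47). The receptor Fas was lower as well (-1.58), and it is on the list of p53 target and damage genes. Of 16 measured on that list, 3 were at least 2-fold lower and none higher, and 13 had ratios below 0 (median -0.28, against 0.04 over all genes). The other lower ones were Bbc3, which drives cell death (-2.11), and Gadd45a, a damage-inducible stress gene, which read 1639.6 at 11 DAI and 3365 at 7 DAI (-1.04, with -0.84 on its second probe). Cdkn1a (-0.53), Mdm2 (-0.88) and Ccng1 (-0.21) stayed within 2-fold.

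Genes of dividing cells had ratios near 0. None of 34 measured replication and mitosis genes passed 2-fold (median 0.14), and Mcm5, Cdk1 and Top2a had ratios of 0.36, 0.12 and -0.16. Of 49 measured histone genes, 3 were lower and none higher. None of 10 housekeeping genes passed 2-fold either, and Gapdh read 15426 at 11 DAI and 15234 at 7 DAI.

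The genes of the lowest ratios belonged to no single list. Grb7, an adaptor of receptor kinases, read 36.0, 530, 880, 70.6 and 54.5 at 0, 3, 7, 11 and 21 DAI, a ratio of -3.64. It was thus low before irradiation and high at 3 and 7 DAI only. Acta2, smooth muscle actin, read 541 at 11 DAI and 5383 at 7 DAI (-3.31). Nt5e, the ectoenzyme CD73 (-3.08), the protease inhibitor Timp2 (-2.92) and the actin-severing protein Gsn (-2.73) were among the 15 lowest. The homeobox gene Lhx1, under the floor at 11 DAI and at 989 at 7 DAI, was at least 15.4-fold lower.

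Some of the highest genes had other roles. Il4i1, an amino acid oxidase of immune cells, was under the floor at 7 DAI and at 1475 at 11 DAI, a log2 ratio of at least 4.53. Hspa1a, the inducible heat shock protein 70, was under the floor at 7 DAI and at 915 at 11 DAI (at least 14.3-fold higher), but it had been at 8686.5 at 0 DAI. Of the measured heat shock genes, 4 of 10 were at least 2-fold higher, including Hsph1 (1.68) and Bag3 (1.66). Endoplasmic reticulum stress genes had 6 of 16 higher, led by the chaperone Hspa5 (920 at 11 DAI and 312 at 7 DAI, 1.56).

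The 2 days differed in where they stood among the 5 arrays. Of the 383 higher genes, 11 DAI was the highest array for 313 (81.7%, against 28.0% of all measured genes) and 7 DAI the lowest for 185 (48.3%, against 18.8%). Of the 679 lower genes, 11 DAI was the lowest for 541 (79.7%, against 22.6%) and 7 DAI the highest for 550 (81.0%, against 23.5%). Choosing genes by the ratio of these 2 arrays raises all 4 shares, so they are given as a description only. Both conditions held for 132 of the higher and 422 of the lower genes.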

How the data were processed

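Total RNA of whole marrow was hybridised to Illumina MouseWG-6 BeadChips, 1 array per time point. The authors deposited linear intensity values that, per the submitters' processing notes, came from GenomeStudio 2010.2; they were background-subtracted and scaled to 1 mean, and all 5 arrays had a mean of 536. The intensities were used as deposited. A second deposited table, whose 10 value columns could not be tied to samples, was not used. Signals under 64 were set to 64, each gene was taken as its annotated probe of the highest mean signal over the 5 arrays, and log2 ratios of 11 DAI over 7 DAI were computed in Python 3.11.15 with pandas 2.3.3. Genes were named from the platform annotation. Of the 45281 probes, 34885 had 1 symbol, 18 several and 10378 none listed. Of 19057 genes, 18992 were matched to RefSeq, and 9172 had more than 1 probe.

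No test was made, since each day had 1 array. The size rule was 2-fold. Named genes were the 15 highest and the 15 lowest ratios, the 8 largest bounds in each direction, the 5 brightest and the 5 most changed of each list, all interferon signalling genes and lists of 14 members or fewer, and the cell markers; other names were chosen after their values were seen. The members and the 47 lists were chosen with earlier results of these data known. The calculation was tested on simulated data. Alternatives were floors of 32 and 100, a pseudocount of 50, other scalings, the mean over probes, the second probe and size rules of 1.5-fold and 3-fold. Signal over background, not depth, limits the precision, and 1 array per day leaves it unknown.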

Additional observations from a re-analysis of the deposited data

How the results depend on the processing

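Each day had 1 array, so no array could be left out and no ratio has an error. No paired analysis was possible because each day has 1 array and the result comes from no test. Alternatives of scaling, floor, pseudocount and probe gave 260 to 505 higher and 503 to 820 lower genes. A 3-fold size rule gave 122 higher and 210 lower genes and a 1.5-fold rule 1279 and 1428. Of the list medians, a floor of 100 moved MHC class I to 1.51, mature B cell genes to 1.21, platelet genes to 1.02 and collagens and matrix to -0.63. It also moved endothelial genes to 0.96 from 0.43 and changed the sign of adipocyte genes, to 0.88 from -0.78. A floor of 32 moved dendritic cell genes to 0.83 from 0.30 and stem cell niche factors to -0.19. It changed the sign of endothelial genes, to -0.00853 from 0.43, and of the integrin chains, to 0.15 from -1.08. A pseudocount of 50 moved MHC class II to 0.84, mature B cell genes to 1.20, platelet genes to 1.01 and adipocyte genes to -0.53. The mean over probes moved heat shock genes to 1.03. The second brightest probe moved mature B cell genes to 1.32, heat shock genes to 1.26 and integrin chains to -1.32. It changed the sign of dendritic cell genes (to -0.34 from 0.30), adipocyte genes (to 0.91 from -0.78) and housekeeping genes (to -0.31 from 0.03). The floors change which dim genes are measured; the causes of the other moves were not tested. Add2 reversed on its second probe, with -0.43 against 1.14. The other 362 list and count values and 2724 gene values under these alternatives moved by no more than the median difference between 2 probes of a gene, 0.23, or, for counts, by no more than 1.5 times; 156 gene values moved by more, and 17 of these changed sign, each of a gene within 2-fold in the main setting.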

Other observations

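Of 24 measured respiratory chain subunits none passed 2-fold, and their median ratio was 0.35. Uqcrc1, a subunit of complex III, read 5644 at 11 DAI and 3257 at 7 DAI (0.79), and Ndufb5 of complex I had a ratio of 0.91. Of 18 measured ribosomal protein genes 1 was higher, Rpl4 (1.01), with a median of 0.37. In glycolysis, 2 of 13 genes were lower: the hexokinase Hk3 read 3289.9 at 11 DAI and 7588 at 7 DAI (-1.21) and the glucose transporter Slc2a3 had a ratio of -1.40. The LDL receptor and cholesterol list had 2 of 14 higher, Lss (1.41) and Fdps (1.39), and 1 lower, Hsd17b7 (-1.30).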
